A study of Mus musculus with 8 samples.

Results

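The interleukin-1 family holds secreted ligands, their antagonists and the paired receptor chains through which they act. The 10 genes followed here are the ligands Il33, Il1b, Il1a and Il18, the receptor antagonist Il1rn, and the receptor chains Il1rl1, Il1r1, Il1r2, Il1rap and Il18r1. They were chosen by family, with earlier results of these data known, and were read from whole-lung expression arrays. A gene was taken where a probe set carried exactly 1 gene symbol, choosing among several probe sets the one brightest on average over the 8 arrays. This rule gave 8 of the 10 genes, each with 1 probe set, among 19937 genes in all, and Il1rl1 and Il1r1 were not analysed here.

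The samples were untreated whole lungs of mice at postnatal day 21, all labelled male. By label, beta-catenin was stabilized in 4 mice and knocked out in 4. Beta-catenin, the product of Ctnnb1, carries the canonical Wnt signal into the nucleus and links cadherins at cell junctions. The labels name neither the driver of the genetic change nor the cells that carry it, and unmodified lungs were not analysed here, so a difference between the groups has no baseline. The 4 arrays of a group are labelled as biological replicates, and no further source of the mice is given.

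Ligands of this family bind a receptor of their own, which then recruits an accessory chain. Interleukin-1 uses Il1r1 with Il1rap, interleukin-33 uses Il1rl1 (ST2) with the same Il1rap, and interleukin-18 uses Il18r1 with Il18rap. The joined chains bring in the adaptor Myd88 and the Irak kinases and activate NF-kB. Interleukin-33 is held in the nucleus and released when cells are damaged, and in the mouse lung alveolar type 2 cells are a main store of it. Interleukin-1 beta is made mainly by activated myeloid cells and, like interleukin-18, is cut to its active form by the protease caspase-1.

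Facts of the arrays bear on every value here. Values are log2 intensities after RMA normalization, on which a difference of 1 is a doubling, and they have no true zero. Ctnnb1 itself lay at 10.99 to 11.14 in stabilized and 10.92 to 11.03 in knockout lungs, a difference of 0.09 ± 0.06 (SE over 4 arrays per group, with adjusted p = 0.42 in limma). The whole-lung transcript of the targeted gene thus did not pass the test between the groups. It cannot test the labels, since the arrays measure RNA and not the beta-catenin protein. The cells that carry the change are also not named. The words "stabilized" and "knockout" name the labelled groups throughout, every direction resting on those labels. Sex-linked genes went against the label in 4 arrays: stabilized replicates 1 and 4 and knockout replicates 1 and 3 had Xist, the transcript that silences an X chromosome in females, at 10.36 to 10.59. The other arrays had it at 4.18 to 4.62. In the arrays with high Xist the Y chromosome genes Uty, Kdm5d and Eif2s3y were read at 3.08 to 4.00, so values of about 3 to 4.6 can be read where a transcript should be missing. Results are therefore also given with this pattern as a covariate, and in the 4 arrays with low Xist alone, 2 per group. Because whole lungs were measured, more cells of a type and more RNA per cell cannot be told apart.

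Within the family 2 ligands rose and no other measured member passed the test. Il33 and Il1b were each 2.23-fold higher in stabilized lungs, and their groups did not overlap. These are 2 of 8 measured members higher at a Benjamini-Hochberg adjusted p under 0.05 in limma over all genes, where 4.65% of all 19937 genes were higher. In either direction 9.62% of all genes were called. The median difference of the 8 members was 0.22, against -0.01 over all genes. At an unadjusted p under 0.05, 5 members were higher and 0 lower, where 12.6% of all genes were higher. Groups that did not overlap were found in 2 members and in 16.9% of all genes. Because Il33 and Il1b were known to differ when the family was chosen, these counts describe the members and do not set the family apart.

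**Figure D1:**
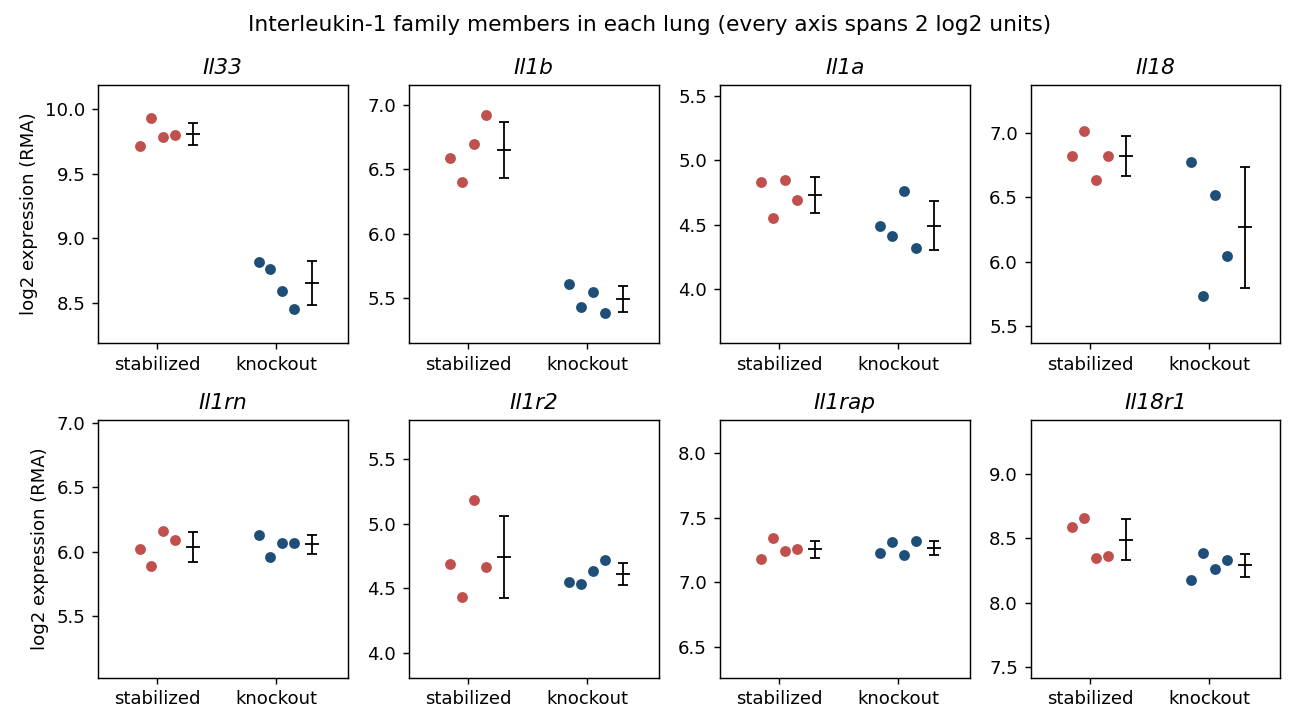
Log2 expression of the 8 measured members in each lung, with 1 point per array, grouped by stabilized (red) and knockout (blue), and the mean ± SD of 4 arrays in black. Every vertical axis spans the same range, and only Il33 and Il1b have groups that do not overlap.

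Il33 was high in every stabilized lung. The log2 values of stabilized replicates 1 to 4 were 9.72, 9.93, 9.79 and 9.80, while those of knockout replicates 1 to 4 were 8.82, 8.76, 8.59 and 8.45. The lowest stabilized array lay above the highest knockout array, and the spread within a group was small beside the gap. The difference was 1.16 ± 0.09 (SE over 4 arrays per group, with adjusted p = 6.0e-06 in limma), with a 95% interval of 0.97 to 1.34. By size this was rank 11 among the increases of all 19937 genes. The difference was 1.06 within the arrays with high Xist and 1.25 within those with low Xist, and it stayed between 1.09 and 1.21 when any 1 array was left out.

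Il1b, the inflammatory ligand of myeloid cells, showed a difference of the same size. In order of replicate number, stabilized lungs gave 6.59, 6.40, 6.70 and 6.92 and knockout lungs 5.61, 5.43, 5.55 and 5.39. Again no knockout array reached the lowest stabilized one. The difference was 1.16 ± 0.10 (SE over 4 arrays per group, with adjusted p = 2.1e-05 in limma), with a 95% interval of 0.94 to 1.38, rank 10 among the increases of all genes. It was 1.18 within the arrays with high Xist and 1.14 within those with low Xist, and 1.07 to 1.24 with any 1 array left out.

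Il1a, the other interleukin-1 agonist, which signals through the same receptor as Il1b, was dim. Stabilized replicates 1 to 4 gave 4.83, 4.55, 4.85 and 4.69, and knockout replicates 1 to 4 gave 4.49, 4.41, 4.76 and 4.32. The groups overlapped, since knockout replicate 3 lay above stabilized replicates 2 and 4. The difference was 0.23 ± 0.10 (SE over 4 arrays per group, with adjusted p = 0.17 in limma), with a 95% interval of 0.02 to 0.45. Several of these values sit close to the 4.18 to 4.62 at which Xist was read where it should be missing, and such dim probe sets understate a change.

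The sequence just upstream of these 3 ligand genes is shown because Il33 and Il1b were both higher in stabilized lungs and Il1a lies beside Il1b on the chromosome. The windows are the 250 bases before each annotated start, from RefSeq on GRCm38.p6, and Il33 has 2 annotated starts. Each is written in the direction of transcription, with matches to TATAAA (the core of the TATA box) or TGANTCA (the AP-1 site) on either strand in capitals.
Il33, upstream start, chr19:29924863-29925112, plus strand: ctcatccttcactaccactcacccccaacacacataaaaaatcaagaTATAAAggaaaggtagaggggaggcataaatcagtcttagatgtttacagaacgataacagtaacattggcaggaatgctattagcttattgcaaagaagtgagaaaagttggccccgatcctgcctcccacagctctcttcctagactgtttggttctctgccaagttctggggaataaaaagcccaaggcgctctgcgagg
Il33, downstream start, chr19:29945540-29945789, plus strand: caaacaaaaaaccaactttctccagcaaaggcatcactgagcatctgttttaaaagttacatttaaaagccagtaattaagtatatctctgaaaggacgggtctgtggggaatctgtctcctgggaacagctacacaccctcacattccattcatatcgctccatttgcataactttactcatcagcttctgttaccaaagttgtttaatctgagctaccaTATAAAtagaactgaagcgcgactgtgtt
Il1b, chr2:129371140-129371389, minus strand: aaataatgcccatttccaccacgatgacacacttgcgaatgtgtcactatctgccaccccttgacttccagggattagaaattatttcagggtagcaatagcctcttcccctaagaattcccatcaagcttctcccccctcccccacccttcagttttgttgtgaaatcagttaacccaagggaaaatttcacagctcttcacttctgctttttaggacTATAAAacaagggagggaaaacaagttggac
Il1a, chr2:129309973-129310222, minus strand: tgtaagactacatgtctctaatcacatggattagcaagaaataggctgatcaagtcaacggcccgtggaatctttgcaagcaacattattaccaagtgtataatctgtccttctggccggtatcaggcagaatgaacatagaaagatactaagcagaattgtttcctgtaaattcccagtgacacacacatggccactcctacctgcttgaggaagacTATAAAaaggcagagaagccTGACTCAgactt
The downstream Il33 start, Il1b and Il1a each had TATAAA close to the start, its first base at -29, -31 and -32, where -1 is the base before the start. The upstream Il33 window had it only at -203. A first base between -40 and -20 was found in 2.5% of all 32851 windows of this length in the RefSeq table. In Il1a an AP-1 match, TGACTCA, followed at -12, and 6.75% of all windows held TGANTCA somewhere. The letters CTTTGAT, a form of the TCF/LEF site through which beta-catenin acts on genes, were in 0 of the 14 windows of the 9 family genes examined (the 8 measured members and Il18rap) and in 3.21% of all windows. These matches describe the letters of short windows only. The arrays do not tell which Il33 start was in use.

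Il18, which epithelial cells and macrophages hold as an inactive precursor, varied widely among knockout lungs. The values of stabilized replicates 1 to 4 were 6.82, 7.01, 6.63 and 6.82, while those of knockout replicates 1 to 4 were 6.77, 5.73, 6.52 and 6.04. Knockout replicate 1 fell within the stabilized range, while knockout replicates 2 and 4 lay well below it. The difference of 0.56 ± 0.18 (SE, n = 4 per group) missed the threshold (limma adjusted p = 0.075), with a 95% interval of 0.16 to 0.95.

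The low knockout arrays were those with low Xist. Il18 differed by 0.93 within the arrays with low Xist and by 0.18 within those with high Xist. The test of this interaction gave a difference of -0.76 ± 0.21 (SE) with an unadjusted p of 0.0042, and it failed the adjustment over all genes (limma adjusted p = 1), as 0 of 19937 genes passed it. With the Xist pattern as a covariate the group difference of Il18 passed (0.56, limma adjusted p = 0.039), and so it did in the low-Xist arrays alone (0.93, adjusted p = 0.02) and without knockout replicate 1 (0.72, adjusted p = 0.014). Over all 16 alternatives its limma adjusted p ranged from 0.014 to 0.19. The part that sex or another property of these mice has in the Il18 values was not tested.

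**Figure D2:**
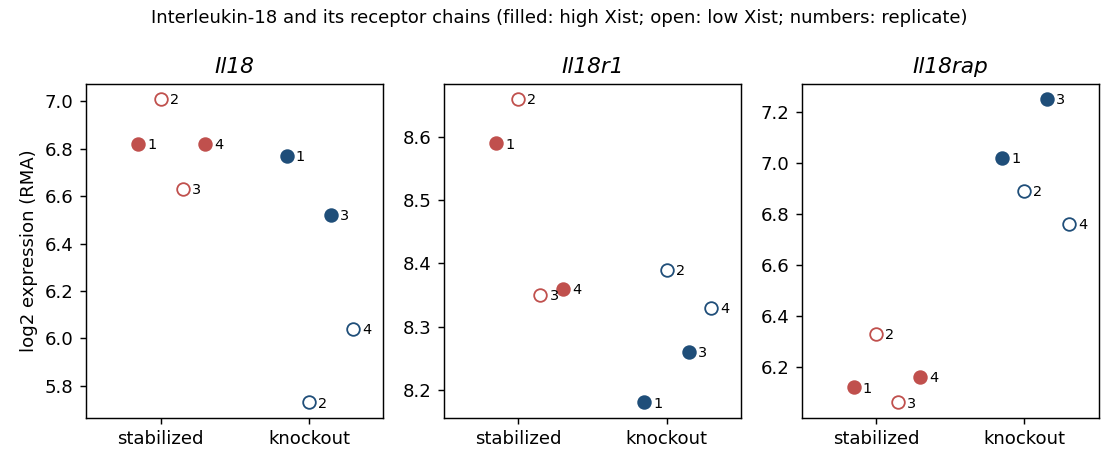
Log2 expression of Il18, Il18r1 and Il18rap in each array of the stabilized (red) and knockout (blue) groups, with filled points for high Xist, open points for low Xist and the replicate number beside each. Knockout replicates 2 and 4, at 5.73 and 6.04, set the low end of Il18, and Il18rap separates the groups.

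None of the other secreted ligands and antagonists measured around the family passed the test. Of 6 measured, among them the antagonists Il1f5 and Il18bp, 0 were called by limma, where 9.62% of all genes were. At an unadjusted p under 0.05, 1 was higher and 0 lower. Their median difference was -0.07, with Il1f6, Il1f8 and Il1f10 averaging in the background range in both groups, where a change is hard to read. The array annotation names them by older symbols. Il1f9, the gene of an interleukin-36 agonist of epithelia, had the smallest p, averaging 5.09 ± 0.11 against 4.90 ± 0.10 in knockout lungs (SD, n = 4, limma adjusted p = 0.13).

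No measured antagonist passed the test. Il1rn, which occupies the interleukin-1 receptor without activating it, gave 6.02, 5.89, 6.16 and 6.09 in stabilized lungs 1 to 4 and 6.13, 5.96, 6.07 and 6.07 in knockout lungs 1 to 4. Its groups overlapped, with a difference of -0.02 ± 0.07 (SE over 4 arrays per group, with adjusted p = 0.91 in limma) and a 95% interval of -0.18 to 0.14. Il18bp, a secreted protein that traps interleukin-18, averaged 7.59 ± 0.08 against 7.66 ± 0.06 in knockout lungs (SD, n = 4, limma adjusted p = 0.55). Il1f5, the interleukin-36 receptor antagonist under its older symbol, averaged 4.85 and 4.96 (limma adjusted p = 0.48, named after its values were seen).

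Il1r2, a decoy receptor that binds interleukin-1 without signalling, gave 4.69, 4.43, 5.18 and 4.66 in stabilized lungs 1 to 4 and 4.55, 4.53, 4.63 and 4.72 in knockout lungs 1 to 4. Only stabilized replicate 3 stood above the rest, and most values were near background. The difference was 0.13 ± 0.13 (SE over 4 arrays per group, with adjusted p = 0.57 in limma), and single-array removal moved it between -0.02 and 0.23.

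Il1rap, the accessory chain shared by the receptors of interleukin-1 and interleukin-33, had the narrowest range over the arrays of the 8 measured members. In order of replicate number, stabilized lungs gave 7.18, 7.34, 7.24 and 7.26 and knockout lungs 7.23, 7.31, 7.21 and 7.32. Its difference was -0.01 ± 0.06 (SE over 4 arrays per group, with adjusted p = 0.92 in limma), with a 95% interval of -0.15 to 0.12.

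Of the interleukin-18 receptor chains, Il18rap passed the test and Il18r1 did not, and the difference between them was not tested. Il18r1, the ligand-binding chain, gave 8.59, 8.66, 8.35 and 8.36 in stabilized lungs 1 to 4 and 8.18, 8.39, 8.26 and 8.33 in knockout lungs 1 to 4. Stabilized replicates 1 and 2 were the highest, and knockout replicate 2 lay among the others, so the groups overlapped. The difference of 0.20 ± 0.08 (SE, n = 4 per group) did not pass (limma adjusted p = 0.16).

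Il18rap, the signalling partner chain found on T and NK cells, fell. It gave 6.12, 6.33, 6.06 and 6.16 in stabilized lungs 1 to 4 and 7.02, 6.89, 7.25 and 6.76 in knockout lungs 1 to 4, with no overlap. It was 1.76-fold lower in stabilized lungs (-0.81 ± 0.10, SE, n = 4 per group, limma adjusted p = 2.8e-04). In the whole comparison 4.96% of genes were lower.

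Il18rap was the 1 called gene among 5 other receptors of the family, where 9.62% of all genes were called. Il1rl2, the receptor of the interleukin-36 ligands, gave 7.50, 7.46, 7.01 and 7.11 in stabilized lungs 1 to 4 and 7.10, 7.01, 7.15 and 7.04 in knockout lungs 1 to 4. Stabilized replicates 1 and 2 were high, as for Il18r1, and the difference of 0.20 ± 0.10 (SE, n = 4 per group) did not pass (limma adjusted p = 0.28). In the RefSeq gene order the receptor genes form a row on chromosome 1, in the order Il1r2, Il1r1, Il1rl2, Il1rl1, Il18r1 and Il18rap. Of the 4 measured there only Il18rap, at one end, passed, and its neighbour Il18r1 was not lower in the mean. Il1a and Il1b are neighbours on chromosome 2, where only Il1b passed.

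**Figure D3:**
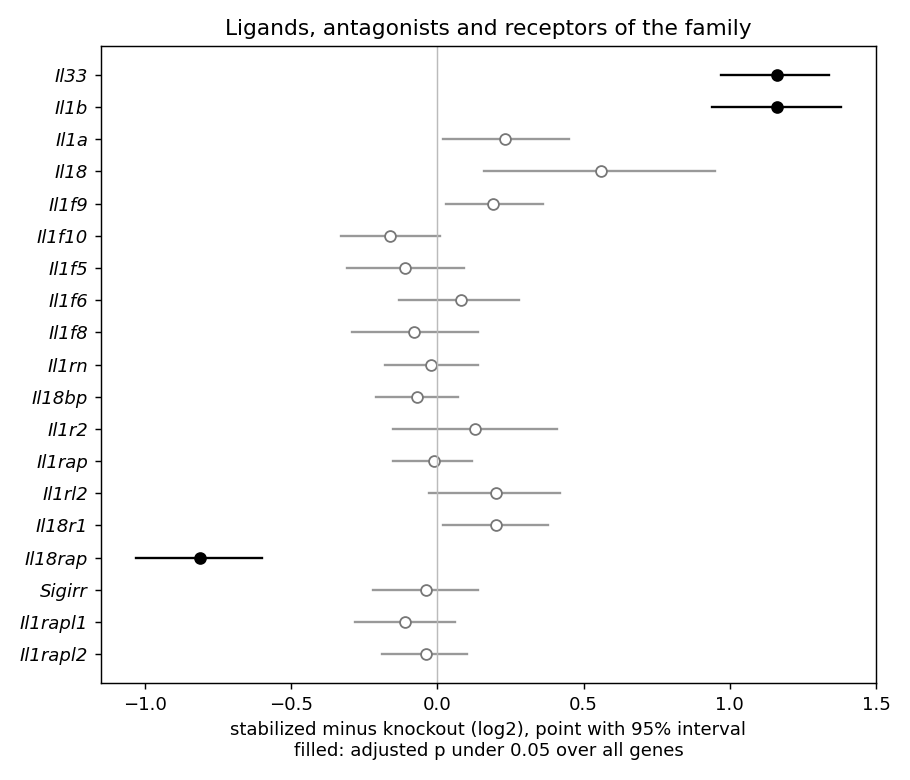
Stabilized minus knockout difference on the log2 scale, with its 95% interval from limma, for the measured ligands, antagonists and receptors of the family. Filled points passed an adjusted p under 0.05: Il33 and Il1b at 1.16 and Il18rap at -0.81.

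Genes that mature and release these cytokines were called about as often as all genes, 9.09% against 9.62%. Among 22 measured genes 1 was higher, 1 was lower and 20 did not pass, with a median difference of -0.01. Casp1, the caspase that cuts the precursors of Il1b and Il18, averaged 5.16 ± 0.15 in stabilized lungs, against 5.03 ± 0.14 in the knockout group (SD, n = 4, limma adjusted p = 0.42). Nlrp3, the sensor of the best-known inflammasome, differed by 0.13 ± 0.09 (SE, limma adjusted p = 0.39). Both genes were dim and their groups overlapped. Nlrp1b, another sensor, fell by 0.36 ± 0.10 and Capn2, a subunit of a calcium-dependent protease, rose by 0.23 ± 0.06 (SE, limma adjusted p = 0.039 and 0.041). Both were close to the threshold: removing a single array took away the call of Nlrp1b in 5 of 8 refits (adjusted p up to 0.11) and that of Capn2 in 6 (up to 0.12), and 0 to 3 genes of the list were then called. Nlrp1b has a near copy, Nlrp1a, so its signal may be shared.

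Of the signalling components below the receptors only Rel passed. Among 39 measured genes 0 were higher, 1 was lower and 38 did not pass in limma, so 2.56% were called against 9.62% of all genes. At an unadjusted p under 0.05 there were 3 higher and 4 lower, where 12.6% and 12% of all genes were. Myd88, the adaptor used by all these receptors, lay at 8.31 ± 0.11 against 8.14 ± 0.07 (SD, n = 4), a difference of 0.17 ± 0.07 (SE, limma adjusted p = 0.16). The member that fell was Rel, an NF-kB subunit prominent in lymphocytes, by 0.30 ± 0.09 (SE, limma adjusted p = 0.046). It failed in 6 of 8 refits with a single array removed (adjusted p up to 0.13), and in the low-Xist arrays alone 0 of the list passed.

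Genes known to respond to interleukin-1 went both ways. Among 32 measured genes 4 were higher, 2 were lower and 26 did not pass, with a median difference of 0.07. Thus 18.8% were called, against 9.62% of all genes. The list was chosen with earlier results of these data known, so this share only describes its genes. The higher count depended on the scaling and the arrays: with each array centred on its median 7 were higher and 2 lower, and without stabilized replicate 1 there were 2 of each. Lrg1, a secreted glycoprotein of inflammation and vessels, averaged 9.25 ± 0.18 in stabilized lungs, reaching 9.40, and 7.64 ± 0.37 in knockout lungs, at 7.10 to 7.92 (SD, n = 4). The groups did not overlap. It was 3.06-fold higher (1.61 ± 0.15, SE, n = 4 per group, limma adjusted p = 4.0e-05). Csf2, the cytokine GM-CSF that alveolar macrophages depend on, rose by 0.35 ± 0.08 (SE, limma adjusted p = 0.012). Named after their values were seen, Ptgs2, the inducible cyclooxygenase, and Ier3 were the others that rose, with differences of 0.51 and 0.35 (limma adjusted p = 0.042 and 0.021). With a single array removed, Ptgs2 failed in 5 of 8 refits and Ier3 in 2, and both failed in the low-Xist arrays alone, as did Csf2 (adjusted p = 0.14, 0.14 and 0.08).

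The genes of this list that fell were Hp, which encodes the acute-phase protein haptoglobin, and the matrix protease Mmp3. Hp fell by 0.51 ± 0.06 and Mmp3 by 0.87 ± 0.12 (SE, n = 4 per group, limma adjusted p = 3.7e-04 and 6.7e-04). Classical chemokine and cytokine targets, also named after their values were seen, did not pass: Cxcl1 differed by 0.01, Cxcl2 by 0.07, Il6 by 0.07 and Tnf by 0.11 (limma adjusted p of 0.96, 0.76, 0.62 and 0.48). Of these, Il6 at 3.13 and Cxcl2 at 4.17 in stabilized lungs lay at background. In the low-Xist arrays alone 3 of the list passed, 1 of them higher.

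Of type 2 cytokines, their receptors and other genes linked to interleukin-33, such as Tslp and Gata3, 16.7% were called, against 9.62% of all genes. Those called were mainly lower. Among 30 measured genes 1 was higher, 4 were lower and 25 did not pass, with a median of -0.07. The type 2 cytokine gene Il13 lay at 5.58 in the stabilized and 5.59 in the knockout group, Il5 at 4.15 and 4.11, and Il4 at 4.74 and 4.83 (limma adjusted p of 0.98, 0.85 and 0.55, named after their values were seen). The last 2 were close to background. Klrg1, a receptor of type 2 innate lymphoid cells and of effector T and NK cells, fell by 0.92 ± 0.18 (SE over 4 arrays per group, with adjusted p = 0.0068 in limma). The T cell costimulator Icos fell by 0.57 ± 0.13 and the chemokine Ccl22 by 0.53 ± 0.14 (SE, limma adjusted p = 0.019 and 0.033). Il5ra, the interleukin-5 receptor of eosinophils, was the other called lower (limma adjusted p = 0.011), but at 3.70 to 3.90 against 4.07 to 4.42 in knockout lungs all its values lay in the background range, so no size is given. With a single array removed, Ccl22 failed in 5 of 8 refits and Icos in 3. The gene that rose was Csf2rb, the shared receptor chain of GM-CSF and interleukin-5, by 0.36 (limma adjusted p = 0.047, named after its value was seen), which failed in 6 of 8 refits with a single array removed. Leaving out stabilized replicate 1 or knockout replicate 1 left 2 called genes in this list, and leaving out stabilized replicate 2, knockout replicate 2 or knockout replicate 3 left 3. In the low-Xist arrays alone 1 passed. The largest difference of the list, named after its value was seen, was that of Clca1, at 7.16 against 8.83 in knockout lungs. Its difference of -1.67 did not pass (limma adjusted p = 0.095) and was not refitted on its own.

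A further list, of targets and partners of interleukin-18 with genes of T and NK cells, held called genes that were lower in stabilized lungs, as was Il18rap. Among 15 measured genes 0 were higher, 5 were lower and 10 did not pass in limma, with a median of -0.28. Thus 33.3% were called, against 9.62% of all genes. At an unadjusted p under 0.05, 1 was higher and 10 were lower, where 12.6% and 12% of all genes were. Prf1, the pore protein of cytotoxic granules, fell by 0.60 ± 0.09, the signal transducer Stat4 by 0.64 ± 0.11, and the T-box factors Eomes and Tbx21 by 0.41 ± 0.08 and 0.61 ± 0.14 (SE, n = 4 per group, limma adjusted p = 0.0011, 0.0023, 0.0066 and 0.018). The other that fell, named after its value was seen, was Fasl, a death ligand of cytotoxic cells, with a difference of -0.27 (limma adjusted p = 0.023), whose stabilized values of 4.45 to 4.60 lay in the background range. Removing a single array took away the call of Fasl in 3 of 8 refits (adjusted p up to 0.08) and that of Tbx21 in 2 (up to 0.052). Ifng, the main product of interleukin-18 action, lay at 4.48 and 4.55, close to background (limma adjusted p = 0.66, named after its values were seen). Leaving out stabilized replicate 1 or knockout replicate 3 left 3 called genes, and 0 passed in the low-Xist arrays alone.

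**Figure D4:**
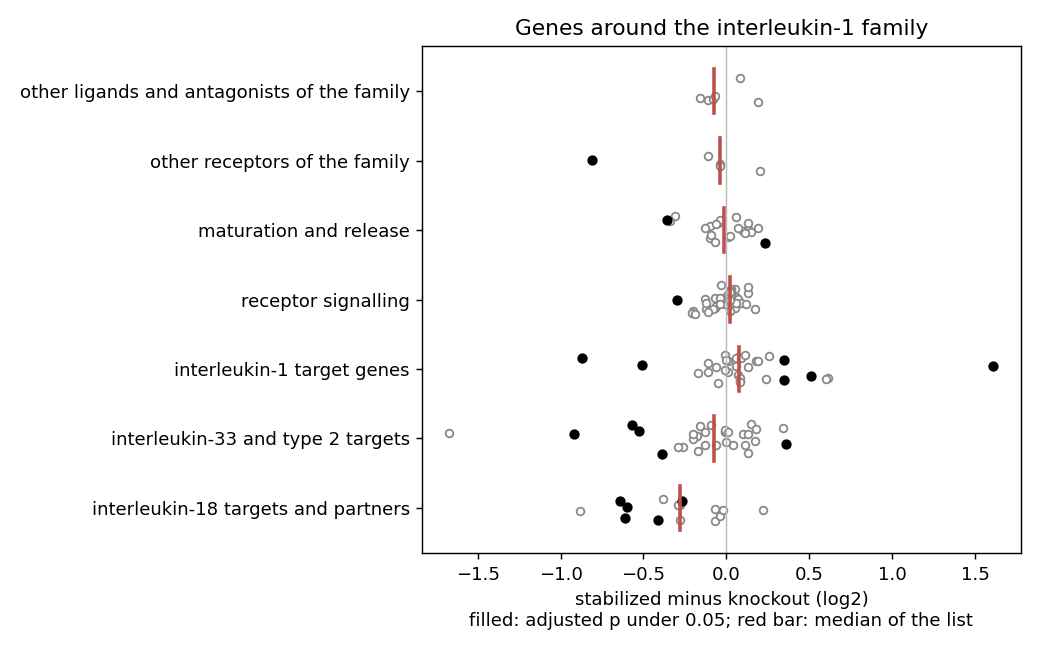
Stabilized minus knockout differences on the log2 scale, 1 point per gene, for 7 lists of genes around the family, with filled points for an adjusted p under 0.05 and a red bar at the median of each list. Medians lie between -0.28 and 0.07, and the point farthest to the right is Lrg1 at 1.61. The point farthest to the left is Clca1 at -1.67, which did not pass.

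Markers of the cells that hold these genes moved as well. Of 17 markers of alveolar type 2 cells, 11 rose, 1 fell and 5 did not pass, so 70.6% were called against 9.62% of all genes. Their median was 0.30, beside 1.16 for Il33, and in the low-Xist arrays alone 5 passed, 4 of them higher. Egfl6 rose by 0.67 ± 0.09 and Fabp5, a fatty acid carrier, by 0.64 ± 0.07, while Hc, complement component 5, fell by 0.85 ± 0.08 (SE, n = 4 per group). The mean log2 level of the list was 10.74 to 10.95 in stabilized and 10.52 to 10.66 in knockout lungs, and its summed linear level was 44342 to 51333 against 40955 to 44211. Sftpc, the defining surfactant gene of these cells, lay at 13.21 and 13.18 (limma adjusted p = 0.83), named after its values were seen and high enough on the array that a change may be compressed. The counts of this list depended on the arrays: removing stabilized replicate 1 or 2, or knockout replicate 2, 3 or 4, left 6 or 7 called markers. Of 14 fibroblast markers, another source of Il33, 5 rose and 0 fell (35.7% called, median 0.23), and 0 passed in the low-Xist arrays. The part of either cell type in the Il33 value was not tested.

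Neutrophil genes rose beside Il1b. Of 18 markers, 8 rose, 1 fell and 9 did not pass, so 50% were called against 9.62% of all genes. Their median was 0.30, and in the low-Xist arrays alone 6 passed, 5 of them higher. The collagenase Mmp8 rose by 0.83 ± 0.08, the lectin receptor Clec4d by 0.85 ± 0.09 and S100a9, a subunit of calprotectin, by 0.72 ± 0.09 (SE, n = 4 per group, limma adjusted p = 4.1e-05, 6.7e-05 and 2.3e-04). Mmp8 lay in the background range in knockout lungs, so its size there is uncertain. The mean log2 level of the list was 5.98 to 6.10 in stabilized and 5.68 to 5.79 in knockout lungs, and its summed linear level was 2332 to 3679 against 1777 to 2284. Lcn2, which did not pass (limma adjusted p = 0.065, named after its values were seen), made up 48.1% to 68.9% of that sum, and without it the sum was 1104 to 1192 against 898 to 1010. Ly6g and Retnlg, also markers of the list, lay at 4.17 and 5.23 in stabilized and at 4.40 and 5.11 in knockout lungs (limma adjusted p = 0.19 and 0.32, named after their values were seen). Ly6g was within the background range on every array, so it cannot show a change of these cells. Cxcr2 and Csf3r of the same list rose by 0.86 and 0.73 (limma adjusted p = 0.0015 and 8.8e-04). Both were named after their values were seen and were not refitted on their own. The marker that fell was Ltf, the granule protein lactoferrin, by 0.89 (limma adjusted p = 0.0029, also named after its value was seen). Of 16 macrophage markers 5 rose and 0 fell (31.2% called, median 0.18), against 2 that rose in the low-Xist arrays alone. Of 15 monocyte markers 2 rose and 2 fell (26.7% called, median 0.08). The part of these cells in the Il1b value was not tested.

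T and NK cell markers fell beside Il18rap. Among 19 measured genes 0 were higher, 16 were lower and 3 did not pass, so 84.2% were called against 9.62% of all genes. Their median was -0.85, beside -0.81 for Il18rap, and 6 passed in the low-Xist arrays alone. There Ccl5, Klrd1 and Cd8a, the called markers with the smallest p over all arrays, differed by -1.77, -0.90 and -1.21. Over all 8 arrays they differed by -1.95, -1.23 and -1.59. Eomes and Tbx21 were also counted among the interleukin-18 genes above. The mean log2 level of this list was 5.87 to 6.12 in stabilized and 6.56 to 7.19 in knockout lungs, and its summed linear level was 1395 to 1704 against 2586 to 4140. Most of the 13 measured markers of type 2 innate lymphoid cells, a main target of interleukin-33, were already counted among the genes linked to it, Icos and Klrg1 included. Of the 13, 0 rose and 5 fell (38.5% called, median -0.20), and 3 fell without stabilized replicate 1, without knockout replicate 3 or in the low-Xist arrays alone. They were led by the interleukin-7 receptor gene Il7r and the activation marker Cd69, which T cells share, at -1.43 ± 0.11 and -1.08 ± 0.09 (SE, n = 4 per group), although Cd69 lay in the background range in stabilized lungs, so its size is uncertain. Gata3, the transcription factor that defines these cells, lay at 7.70 in both groups (limma adjusted p = 0.99, named after its values were seen). Of 12 markers of mast cells and basophils, another target, 1 rose and 0 fell (8.33% called, median -0.01). It was Hdc, the enzyme that makes histamine, which rose by 0.87 ± 0.11 (SE, limma adjusted p = 2.6e-04, named after its value was seen). Cpa3, Ms4a2, Fcer1a, Mcpt4, Mcpt8, Cma1 and Mcpt1 had means in the background range in both groups. The mast cell and basophil list can therefore say little about these cells. The part of the T and NK cells in the Il18rap value was not tested.

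**Figure D5:**
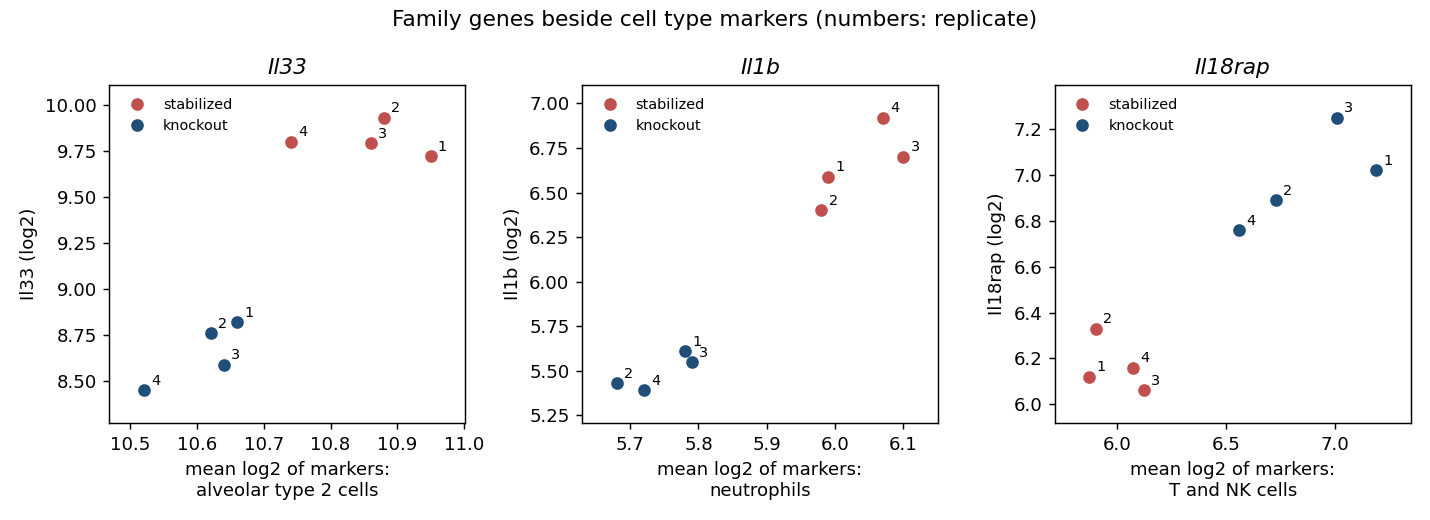
Log2 expression of Il33, Il1b and Il18rap in each array against the mean log2 level of markers of alveolar type 2 cells, neutrophils, and T and NK cells, with stabilized arrays in red, knockout arrays in blue and replicate numbers beside the points. The groups separate on both axes in each panel, for Il33 at marker levels of 10.74 to 10.95 against 10.52 to 10.66. Such separation is not particular to the lists drawn. Fibroblast markers lay at 10.15 to 10.26 against 9.89 to 10.05, and macrophage markers at 7.90 to 8.01 against 7.67 to 7.79. Of the cell type lists not drawn, only those of monocytes and of mast cells and basophils overlapped between the groups.

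By pattern over the 8 arrays, the genes most like Il33 were Neto2, Lilra5, Gpam, Sel1l and Pfkfb2, with Pearson r between 0.986 and 0.992. Those most like Il1b were Ptprs, Pdgfrl, Cntn4, Nadk and Dlat, with r between 0.976 and 0.982. The measure includes the gap between the groups, which any gene with a clear group difference shares, and it is given as a description over 8 arrays. Of these genes Cntn4 and Pdgfrl had the larger differences, at 1.05 and 0.96, and Dlat the smallest, at 0.14. The lists for Il33 and Il1b had no gene in common, although both cytokine genes separated the groups by 1.16.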

How the data were processed

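Whole-lung RNA of 8 mice was measured on Affymetrix whole-transcript arrays, 4 per group. Per the submitters' processing notes the authors used RMA from affy (versions not given in the sources used here), and the deposited values are log2 intensities of 34760 probe sets. RMA equalises array distributions, so a difference in total RNA could not show, and the small number of arrays limits the precision.

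Of the probe sets, 21640 had 1 gene symbol in the platform annotation, 1321 had several and 11799 had no annotation row. Keeping the brightest per gene left 19937 genes. Stabilized was compared with knockout in limma 3.58.1 (R 4.3.3, lmFit and eBayes, no covariate, no filter), with 6.2 prior and 12.2 total degrees of freedom and Benjamini-Hochberg adjustment over all genes. Errors are moderated standard errors (SE) or standard deviations (SD), and intervals cover 95%.

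Members and lists were chosen with earlier results of these data known, so their counts and shares describe the genes listed and do not set a list apart. From each of 7 pathway lists, up to 4 called genes with the smallest p were named, or the first where none was called, and from cell type lists up to 3. Il1rl2, Il18rap, Il18bp, Casp1, Nlrp3 and Myd88 were named whatever their values. The 5 genes most like Il33 and the 5 most like Il1b were picked by their Pearson r over the 8 arrays. Genes named after their values were seen are marked as such. Other B cell, club, ciliated, dendritic and endothelial lists had 0, 0, 0, 1 and 1 markers higher and 9, 9, 11, 6 and 1 lower, of 10, 11, 13, 12 and 16. The shares called were 90%, 81.8%, 84.6%, 58.3% and 12.5%, against 9.62% of all genes. On simulated data for this comparison over 19937 genes, 80% of 100 genes changed by 0.5 and 99% of 100 changed by 1 were recovered, with 7 unchanged genes called.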

Additional observations from a re-analysis of the deposited data

Results flagged for a closer look

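Among 190 sets of 4 arrays, 2 for each of 95 named genes, 12 held 1 array far from the other 3, where chance flags about 1 in 20. None was a measured family member of the 8 followed here. Of related genes, Il18bp was low in stabilized replicate 2 at 7.47, against 7.61 to 7.64, and the interleukin-1 target Mmp3 was low in knockout replicate 3 at 5.88, against 6.19 to 6.24. The type 2 cytokine gene Il13 was low in knockout replicate 1 at 5.21, against 5.67 to 5.76. Of the genes most like a member, Sel1l was high in stabilized replicate 2 at 10.01, against 9.94 to 9.95, and Pdgfrl in stabilized replicate 4 at 6.76, against 6.62 to 6.64. C1qa, a complement gene of macrophages, was high in replicate 3 of both groups, at 8.05 in stabilized (others 7.69 to 7.73) and 7.30 in knockout lungs (others 7.17 to 7.19). In stabilized lungs the lymphocyte genes Cd69 and Cd79a were low in replicate 4 at 4.30 and 5.07, and Klrd1 in replicate 1 at 4.60. Tcf21 was high in stabilized replicate 1 at 10.11, and Cd34 in knockout replicate 4 at 10.54.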

How the results depend on the processing

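Il33, Il1b and Il18rap kept their direction and their call under all 16 alternatives, with highest limma adjusted p of 0.0026, 0.0037 and 0.044, all in the low-Xist arrays alone. Il18 passed with the Xist pattern as a covariate (0.56, adjusted p = 0.039), in the low-Xist arrays (0.93, adjusted p = 0.02) and without knockout replicate 1. With any 1 array left out its difference was 0.38 to 0.72. The count of called genes was 354 in the low-Xist arrays and 1216 to 1839 with 1 array left out, lowest without stabilized replicate 1 (1216) and knockout replicate 3 (1235), against 1917. Centring each array on its median made 64.4% of called genes higher, against 48.4%. Replicate numbers did not pair the arrays (correlations of deviations -0.01 to 0.08), and with the replicate block 1828 genes and 2 members were called. Over the 95 named genes, 102 of the refitted values lost their call, 7 gained one and 0 changed sign with a call on either side. Differences never called could change sign, as those of Il1r2 and Il1rn did. Dim probe sets such as Il1a and Il1r2 limit what can be read.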
